A study of Mus musculus with 30 samples.

Results

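The 42 genes described here are Ppara, the gene of the nuclear receptor PPAR-alpha, and 41 genes of the fatty acid handling that this receptor is known to control, chosen by symbol among the 55335 genes counted in mouse liver. All 42 were found through their Ensembl identifiers, and all 42 passed the filter on low counts in each comparison. The animals were males of 3 genotypes (wild-type, C151S, and Nrf2-knockout) on an albino C57BL/6J background, aged 7 to 10 weeks. Their livers were taken 24 hours after 1 oral dose of CDDO-Me at 30 µmol/kg or of its vehicle, a mixture of DMSO, Cremophor-EL, and PBS. There were 5 mice in each of the 6 groups of genotype and treatment, and 1 mRNA library was made from each mouse. CDDO-Me (bardoxolone methyl) is a synthetic triterpenoid that activates the transcription factor NRF2 by modifying its repressor KEAP1. C151S mice are homozygous for a Keap1 allele, made by CRISPR-Cas9 knock-in, in which a reactive cysteine of that repressor is a serine, and Nrf2-knockout mice lack functional NRF2. Both mutant lines were bred as homozygotes and wild-type mice were purchased, so that genotype and colony of origin cannot be told apart in these data.

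PPAR-alpha binds fatty acids and their derivatives, pairs with the retinoid X receptor, and switches on genes for the uptake, activation, and burning of fatty acids, above all in the liver during fasting. Very long chains are shortened in the peroxisome, most other fatty acids are carried into the mitochondrion as carnitine esters and oxidized there, and a small part is hydroxylated at the far end of the chain by cytochrome P450 enzymes of the Cyp4a family. In mice the Cyp4a genes, the acyl-CoA thioesterase genes, and peroxisomal enzymes are among the classical targets of the receptor.

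The sum of counts over genes ranged from 23667068 to 42073169 among the libraries (median 33229925). Nqo1, the standard NRF2 target, was at 7.20 ± 2.38 CPM (counts scaled to library size, mean ± SD, n = 5) in vehicle-treated and 64.4 ± 25.0 CPM in CDDO-Me-treated wild-type mice, and at 5.56 to 8.11 CPM in CDDO-Me-treated C151S and 1.88 to 3.41 CPM in CDDO-Me-treated Nrf2-knockout mice. Nfe2l2, the gene that encodes NRF2, was still counted in the Nrf2-knockout mice, at 35.2 ± 4.54 CPM after vehicle against 66.1 ± 4.15 CPM in wild-type mice. The summed level of 6 hepatocyte markers was 59889 to 144960 CPM over all libraries, and the adipocyte markers Adipoq, Plin1, Lep, and Retn were at 3 counts or fewer in every library. The mutant libraries fell into separate sets by Arntl, a core clock gene. Arntl lay at log2 CPM values of -1.15 to 0.9 in 11 mutant libraries and of 2.52 to 4.79 in the other 9 mutant libraries and all 10 wild-type libraries. The 11 low-Arntl libraries were those of vehicle-treated C151S mice 4 and 5, CDDO-Me-treated C151S mice 3, 4, and 5, vehicle-treated Nrf2-knockout mice 1, 2, and 3, and CDDO-Me-treated Nrf2-knockout mice 1, 3, and 4. Mutant against wild-type results are therefore also given for the high-Arntl libraries alone, a comparison of fewer mice. It held 3 vehicle-treated and 2 CDDO-Me-treated C151S mice and 2 Nrf2-knockout mice per treatment, against all 5 wild-type mice. These mice are also part of the main comparisons, so that the results are not independent of them.

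A gene was called at an FDR under 0.05 in edgeR's quasi-likelihood test over all genes tested, together with an absolute log2 difference of at least 0.5. The p values judge a difference between groups against the spread between these mice. In whole liver, fewer cells of a type and less RNA per cell cannot be told apart.

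In wild-type mice CDDO-Me went with lower Fabp1 and Ehhadh and with higher Fgf21 and Acot3, and edgeR called no member for treatment in C151S or Nrf2-knockout mice. DESeq2 and the edgeR fit of all 30 libraries called Apoa4 higher after CDDO-Me in Nrf2-knockout mice. That fit of all 30 libraries called no member for treatment in wild-type mice. The differences between genotypes were larger: Cyp4a14 and Cyp4a31 stood several fold above the wild-type level in Nrf2-knockout mice after either treatment, with Acot1, Acot2, and Cpt1a also called higher both times. With high-Arntl libraries only, Cyp4a14 and Cyp4a31 stayed called both times. Of Acot1, Acot2, and Cpt1a, only Acot2 after vehicle was still called there. Most other members varied little. The highest group mean was less than 1.5 times the lowest for 24 of the 42 genes, and the ratio reached 2 or more for 10. These 10 were Cyp4a14 (6.77), Acot3 (6.48), Apoa4 (6.19), Cyp4a31 (4.76), Fgf21 (4.16), Pdk4 (3.55), Acot1 (3.10), Acot2 (2.42), Crat (2.05), and Acaa1b (2.05). The highest mean belonged to the CDDO-Me-treated Nrf2-knockout mice for 18 members and to the CDDO-Me-treated wild-type mice for 11, whereas the lowest belonged to the CDDO-Me-treated wild-type mice for 14 and to the vehicle-treated C151S mice for 12.

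**Figure D1:**
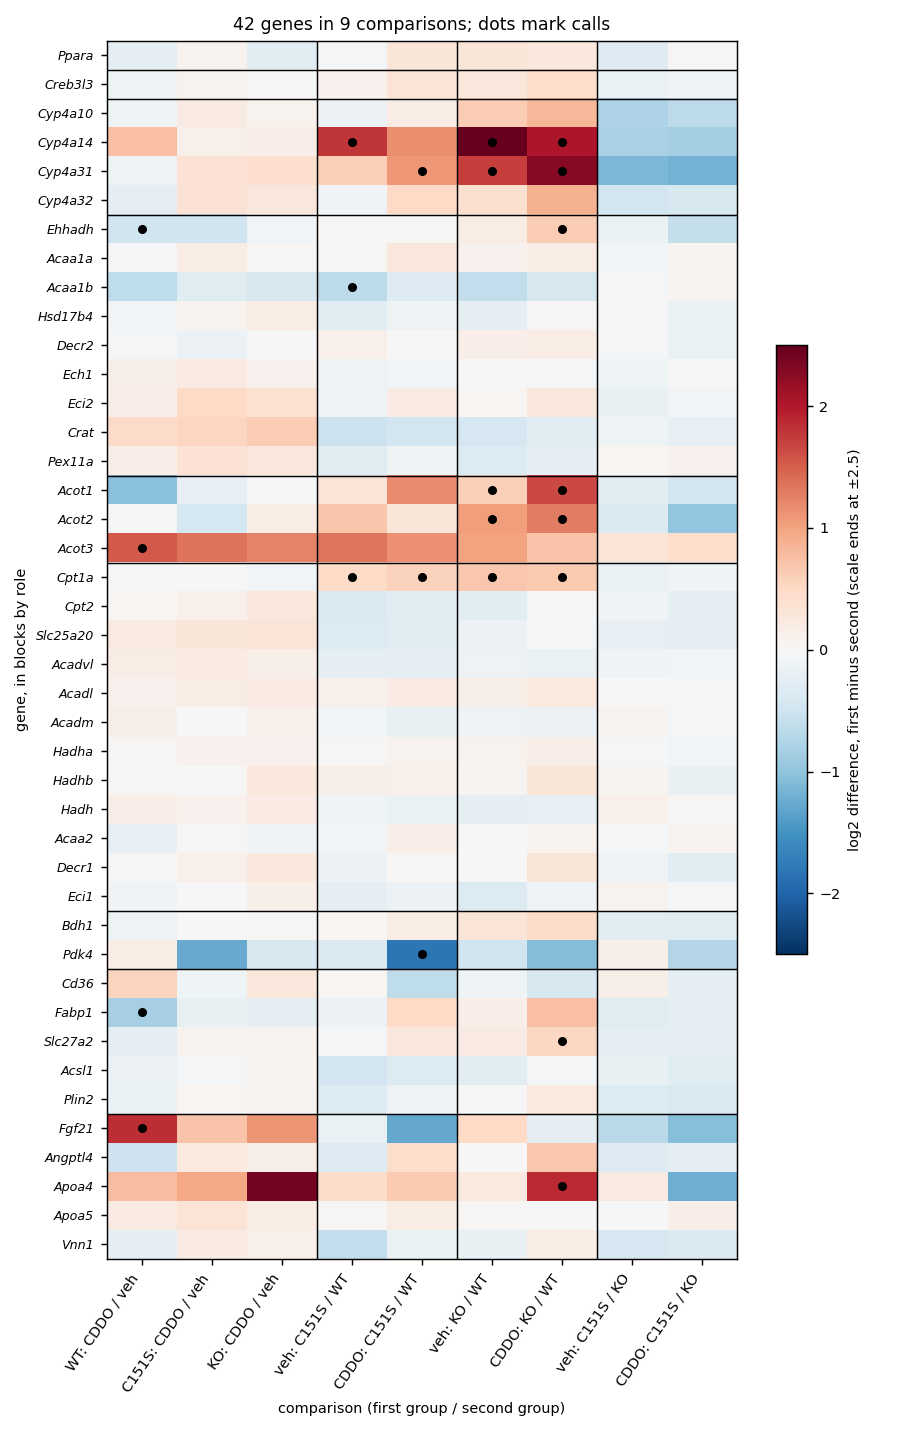
Log2 differences of the 42 genes (rows, in blocks by role) in the 9 comparisons of 2 groups (columns), with red for higher and blue for lower in the first group, a color scale that ends at 2.5 in each direction, and dots for calls. The Nrf2-knockout against wild-type columns hold 5 dots after vehicle (11.9% of members, 10.4% of all genes) and 8 after CDDO-Me (19% and 9.44%). The treatment columns of the mutants and the columns of C151S against Nrf2-knockout hold none, and at most 0.349% of all genes were called there.

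Of 13697 genes tested for treatment in wild-type mice, 377 (2.75%) were called. Among the members 4 of 42 were called, 2 in each direction, and 13 had an unadjusted p under 0.05; the median log2 difference of the members was -0.05 against -0.01 for all genes. In C151S mice 13 of 14128 genes (0.092%) were called by edgeR and none was a member, with 4 members at an unadjusted p under 0.05. DESeq2 called 100 genes in C151S mice, and none of these was a member. In Nrf2-knockout mice edgeR called 0 of 14474 genes (0%), with 1136 genes at an unadjusted p under 0.05, 6 of them members, and DESeq2 called 52 genes, of which Apoa4 was the only member.

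After vehicle, 4.84% of the genes tested were called between C151S and wild-type mice and 10.4% between Nrf2-knockout and wild-type mice. The members called numbered 3 and 5, respectively, and those 5 were all higher in Nrf2-knockout mice, a direction in which 6.29% of genes were called. After CDDO-Me the corresponding shares were 5% and 9.44%, with 3 and 8 members called, and all 8 were again higher in Nrf2-knockout mice, against 4.59% of genes called in that direction. Between C151S and Nrf2-knockout mice 0.349% of genes were called after vehicle and 0.162% after CDDO-Me. No member was called by edgeR in either comparison, with 3 and 6 members at an unadjusted p under 0.05. DESeq2 called 2 members in each, among 180 of 14323 genes called after vehicle and 118 of 14186 after CDDO-Me. The comparisons of both mutants with wild-type mice share their wild-type libraries.

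**Figure D2:**
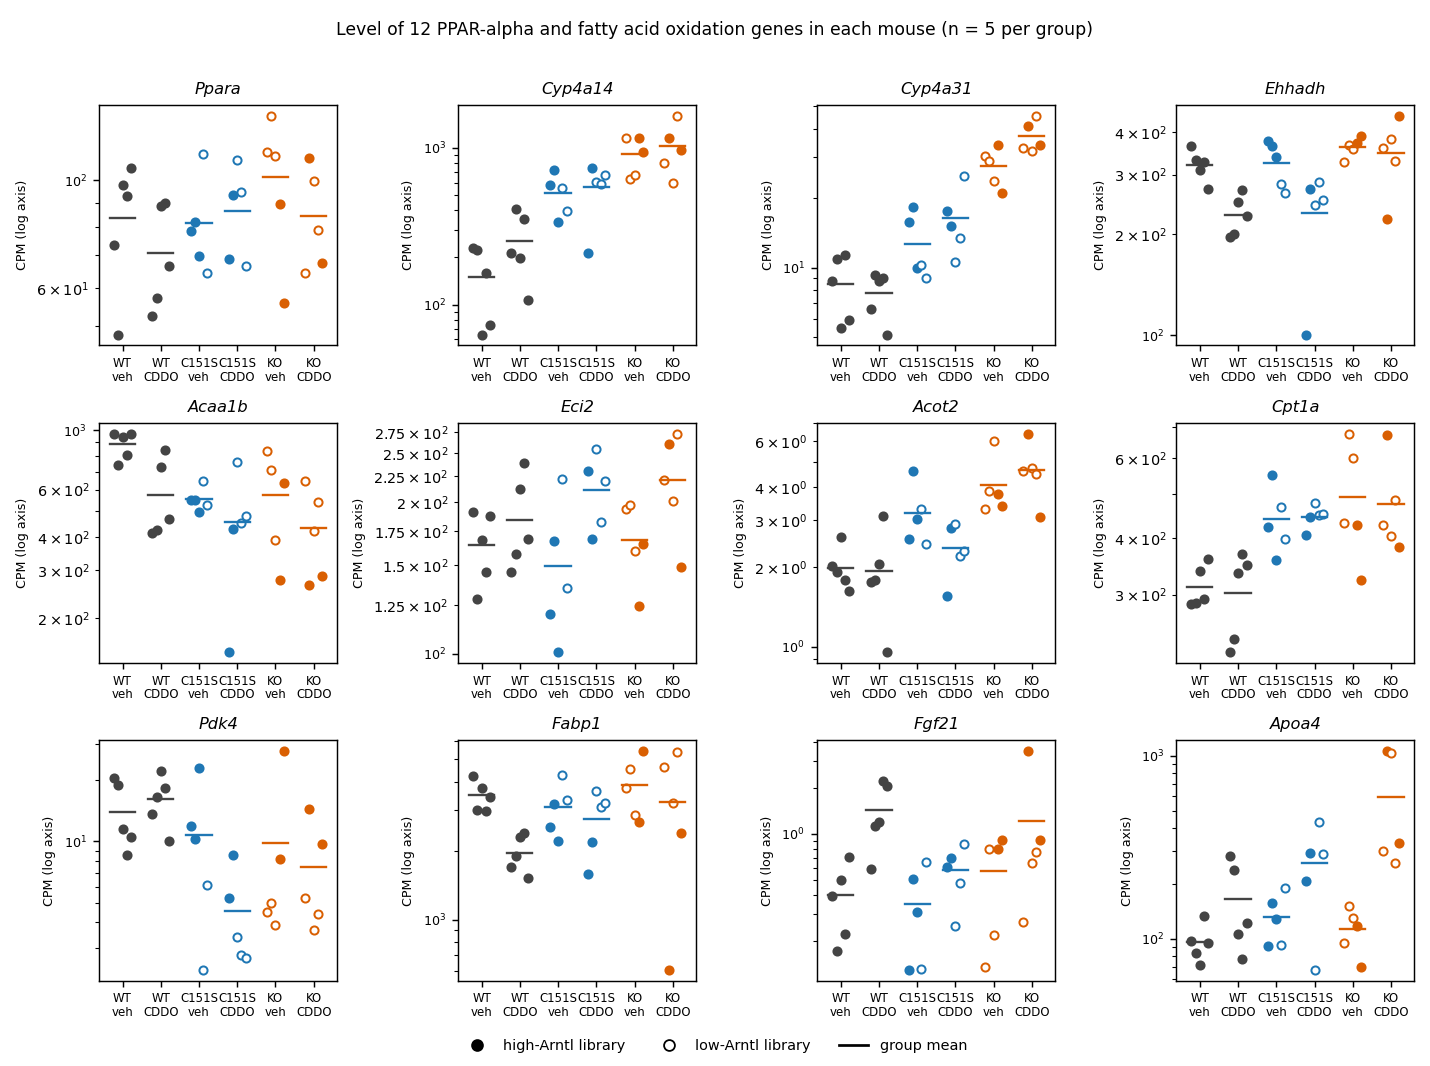
CPM (log axis) of 12 of the members in each of the 30 mice, in 6 groups of 5, with filled points for high-Arntl libraries, open points for low-Arntl libraries, and bars for group means. Cyp4a14 and Cyp4a31 step up from wild-type to C151S to Nrf2-knockout mice, and Fabp1 is lower in all 5 CDDO-Me-treated than in all 5 vehicle-treated wild-type mice.

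Ppara itself varied more between mice than between groups. It lay at 73.4, 48.1, 97.8, 93, and 106 CPM in vehicle-treated and 52.5, 57.2, 88.4, 89.9, and 66.7 CPM in CDDO-Me-treated wild-type mice. C151S mice had 78.7, 81.9, 69.8, 114, and 64.5 CPM after vehicle and 68.8, 93.1, 110.1, 94.6, and 66.6 CPM after CDDO-Me. Nrf2-knockout mice had 114, 136, 112, 89.4, and 56 CPM after vehicle and 64.4, 111, 99.5, 79, and 67.6 CPM after CDDO-Me. All 6 groups overlapped, and the differences between them ran from -0.31 to 0.31 on the log2 scale without a call. Creb3l3, a liver transcription factor that works with PPAR-alpha during fasting, had group means of 259.6 to 346.5 CPM. Its largest log2 difference, between Nrf2-knockout and wild-type mice after CDDO-Me, was 0.43 ± 0.17 (SE, edgeR FDR = 0.108).

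Cyp4a14, an omega-hydroxylase of fatty acids (GRCm38 chr4:115486200-115496142), showed the widest range. In vehicle-treated wild-type mice it lay at 231, 223, 64.5, 159.8, and 74.7 CPM, in C151S mice at 577, 719, 338, 551, and 397 CPM, and in Nrf2-knockout mice at 1146, 632, 672, 1155, and 935 CPM. Every mutant mouse was above every wild-type mouse after vehicle, whereas the ranges of the mutants overlapped. The log2 difference from wild-type was 1.79 ± 0.37 in C151S mice (3.46-fold, edgeR FDR = 0.0136) and 2.61 ± 0.37 in Nrf2-knockout mice (6.09-fold, edgeR FDR = 0.00145). With high-Arntl libraries only, these values were 1.88 (edgeR FDR = 0.00996) and 2.83 (edgeR FDR = 0.0111). After CDDO-Me, wild-type mice had 213, 409, 198, 350.4, and 107 CPM, C151S mice 214, 741, 608, 589, and 668 CPM, and Nrf2-knockout mice 799.9, 1154, 594, 1589, and 962 CPM. All Nrf2-knockout mice again lay above all wild-type mice, at a log2 difference of 2.02 ± 0.35 (4.04-fold, edgeR FDR = 0.0036), and at 2.07 (edgeR FDR = 0.0158) with high-Arntl libraries only. In C151S mice 4 of 5 were above the wild-type range and mouse 1 was within it, and the log2 difference of 1.16 ± 0.38 was not called (edgeR FDR = 0.0851). CDDO-Me itself gave log2 differences of Cyp4a14 of 0.75 in wild-type, 0.12 in C151S, and 0.16 in Nrf2-knockout mice, none of them called. The 3 calls of Cyp4a14 were kept with each mouse left out in turn.

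Cyp4a31, a relative of Cyp4a14 near it on chromosome 4 (GRCm38 chr4:115563649-115579015), was expressed at a lower level and separated the genotypes more sharply. It was at 8.74, 10.9, 5.46, 11.3, and 5.93 CPM in vehicle-treated wild-type mice and at 30.3, 28.9, 23.8, 34, and 21.1 CPM in vehicle-treated Nrf2-knockout mice. After CDDO-Me the values were 6.65, 9.33, 8.75, 9.03, and 5.14 CPM in wild-type mice and 33, 41, 32, 45.3, and 34 CPM in Nrf2-knockout mice. The lowest Nrf2-knockout mouse was thus above the highest wild-type mouse both times. The log2 difference was 1.73 ± 0.22 after vehicle (3.31-fold, edgeR FDR = 0.000754) and 2.27 ± 0.17 after CDDO-Me (4.82-fold, edgeR FDR = 6.14e-06). High-Arntl libraries alone gave 1.74 (edgeR FDR = 0.0136) and 2.29 (edgeR FDR = 0.00044), and both calls were kept with each mouse left out in turn.

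C151S mice were in between for Cyp4a31, at 15.7, 18.3, 10, 10.2, and 9 CPM after vehicle and 17.6, 15.1, 10.5, 13.5, and 25 CPM after CDDO-Me. After CDDO-Me they did not overlap with wild-type mice (log2 difference 1.09 ± 0.23, 2.13-fold, edgeR FDR = 0.0188; 1.08 and edgeR FDR = 0.0424 with high-Arntl libraries only), and the call was lost without CDDO-Me-treated wild-type mouse 1 (1.02, edgeR FDR = 0.0565). After vehicle the groups overlapped and the log2 difference of 0.60 ± 0.26 was not called (edgeR FDR = 0.166), although it was with high-Arntl libraries only (0.82, edgeR FDR = 0.0437). Against Nrf2-knockout mice, C151S mice were lower in Cyp4a31 without overlap in either treatment. These differences fell just short of a call, at -1.13 ± 0.21 after vehicle (edgeR FDR = 0.0548) and -1.18 ± 0.20 after CDDO-Me (edgeR FDR = 0.0502), and DESeq2 called both, with an FDR of 0.000124 and 4.57e-05, respectively. They passed in edgeR without vehicle-treated C151S mouse 2 (-1.29, edgeR FDR = 0.0289) or CDDO-Me-treated C151S mouse 5 (-1.37, edgeR FDR = 0.0157).

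Cyp4a10 and Cyp4a32, the remaining Cyp4a members, had their highest means in Nrf2-knockout mice as well, at 410.5 and 437.5 CPM for Cyp4a10 and 37.7 and 46.0 CPM for Cyp4a32, but neither was called. All 4 Cyp4a members were higher in Nrf2-knockout than in wild-type mice both times, with a median log2 difference of 1.18 after vehicle and 1.45 after CDDO-Me and 2 calls each time. Reads that match several genes were not counted, and of the 50-base stretches of its exons Cyp4a32 shares 43.8% with other genes, Cyp4a10 29.8%, and Cyp4a31 20.6%, so that reads could be lost or exchanged within this family. Cyp4a14 shares 0.235%. Endothelial markers moved in the same comparison: their summed level was 129.2 to 163.7 CPM in vehicle-treated wild-type and 170.9 to 260.2 CPM in vehicle-treated Nrf2-knockout mice, with 2 of 4 markers called higher, and 1 of 4 after CDDO-Me. Of the stellate and fibroblast markers 1 of 4 was called higher in vehicle-treated Nrf2-knockout mice, and after CDDO-Me 1 of 6 hepatocyte markers was called higher and 1 of 5 macrophage markers lower in each mutant. The part of these markers in the mutant results was not tested.

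The 9 peroxisomal members gave 1 call for treatment, Ehhadh, which encodes a bifunctional enzyme with hydratase and dehydrogenase activities of beta-oxidation. In wild-type mice it fell from 365, 331, 310.0, 327, and 272 CPM after vehicle to 196, 200.2, 249, 269, and 225 CPM after CDDO-Me. The groups did not overlap, with their nearest mice at 272 and 269 CPM. The log2 difference was -0.50 ± 0.10 (0.706-fold, edgeR FDR = 0.0157), at the edge of the size threshold. The call was lost without vehicle-treated mouse 1 (-0.45) or 2 (-0.49), and without CDDO-Me-treated mouse 1 (-0.45) or 2 (-0.46). In C151S mice Ehhadh lay at 378, 364, 339, 280.4, and 265 CPM after vehicle and 101, 271, 244, 285, and 253 CPM after CDDO-Me, and the same log2 difference of -0.50 was not called there. Nrf2-knockout mice had 326, 367, 357, 373, and 391 CPM after vehicle and 360.1, 222, 381, 329, and 447 CPM after CDDO-Me. After CDDO-Me they exceeded wild-type mice by 0.63 ± 0.17 (1.55-fold, edgeR FDR = 0.0333) with overlapping ranges. That call was lost with high-Arntl libraries only (0.59, edgeR FDR = 0.179). It was also lost without wild-type mouse 1, 2, 3, or 5 or Nrf2-knockout mouse 1, 3, or 5 (0.52 to 0.65, edgeR FDR = 0.0527 to 0.0882).

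Acaa1b, a peroxisomal thiolase that carries out the final step of beta-oxidation, was highest in vehicle-treated wild-type mice. These had 965, 740.4, 941, 805, and 969 CPM, against 551, 547, 496, 646, and 527 CPM in vehicle-treated C151S mice. All C151S mice were below all wild-type mice, at a log2 difference of -0.66 ± 0.10 (0.632-fold, edgeR FDR = 0.00341; -0.71 and edgeR FDR = 0.00195 with high-Arntl libraries only), and the call was kept with each mouse left out in turn. Vehicle-treated Nrf2-knockout mice spread from 277 to 838 CPM, and their difference of -0.62 ± 0.24 was not called (edgeR FDR = 0.0986). CDDO-Me-treated wild-type mice had 413, 423, 731, 839.9, and 467 CPM, which overlapped with vehicle (log2 difference -0.63 ± 0.19, edgeR FDR = 0.0924). After CDDO-Me, C151S mice lay at 149 to 761 CPM and Nrf2-knockout mice at 265 to 647 CPM, without a call. Acaa1b shares 30.5% of its 50-base stretches with the thiolase gene Acaa1a, which had group means of 140 to 167.2 CPM and no call.

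Eci2, an isomerase that lets unsaturated fatty acids enter beta-oxidation, had the lowest p of the members for treatment in C151S mice. It was at 119.7, 167, 101, 222, and 135 CPM after vehicle and at 230.4, 169, 254, 183, and 220.0 CPM after CDDO-Me there. The ranges overlapped and the log2 difference of 0.50 ± 0.20 was not called (edgeR FDR = 0.354). Wild-type mice had 191, 128, 168, 145, and 187 CPM after vehicle and 145, 158, 212, 238, and 169 CPM after CDDO-Me. Nrf2-knockout mice had 194, 197, 159.9, 124, and 165 CPM after vehicle and 221, 260.3, 201, 273, and 149 CPM after CDDO-Me. Group means of Eci2 were higher after CDDO-Me in all 3 genotypes. Crat, which makes acyl-carnitines, showed the same order, with log2 differences of 0.48 ± 0.15 in wild-type (edgeR FDR = 0.0985), 0.54 in C151S, and 0.63 ± 0.20 in Nrf2-knockout mice (edgeR FDR = 0.547), none of them called. CDDO-Me-treated C151S mouse 1 had 81.2 CPM and the others 32.4 to 45.0 CPM, against 19.5 to 36.4 CPM after vehicle. CDDO-Me-treated Nrf2-knockout mouse 2 had 85.9 CPM and the others 40.0 to 51.9 CPM, against 29.3 to 37.5 CPM after vehicle. Vehicle-treated wild-type mice, at 40.1 to 56.0 CPM, were above every vehicle-treated mutant mouse. These log2 differences from wild-type, -0.53 in C151S and -0.42 in Nrf2-knockout mice, were not called. Hsd17b4, Decr2, and Ech1, further enzymes of the peroxisomal pathway, and Pex11a, which promotes division of the organelle, were not called in any comparison.

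The acyl-CoA thioesterases Acot1, Acot2, and Acot3 release free fatty acids from coenzyme A in the cytosol, mitochondrion, and peroxisome, respectively. All 3 were higher in both mutants than in wild-type mice after either treatment, with calls for Acot1 and Acot2 in Nrf2-knockout mice. Acot2 lay at 2.02, 1.92, 2.6, 1.79, and 1.62 CPM in vehicle-treated wild-type mice and at 3.32, 3.88, 5.98, 3.76, and 3.4 CPM in vehicle-treated Nrf2-knockout mice, without overlap. After CDDO-Me it was at 1.76, 1.79, 2.05, 3.11, and 0.953 CPM in wild-type and 4.62, 6.39, 4.74, 4.48, and 3.1 CPM in Nrf2-knockout mice, where the highest wild-type mouse barely passed the lowest Nrf2-knockout mouse. The log2 difference was 1.05 ± 0.20 after vehicle (2.07-fold, edgeR FDR = 0.00715) and 1.29 ± 0.27 after CDDO-Me (2.44-fold, edgeR FDR = 0.0105). High-Arntl libraries alone gave 0.88 (edgeR FDR = 0.0393) and 1.31, which was no longer called (edgeR FDR = 0.0727). C151S mice had 2.55, 4.61, 3.04, 3.32, and 2.44 CPM after vehicle and 1.56, 2.82, 2.92, 2.2, and 2.29 CPM after CDDO-Me. Neither difference from wild-type was called (0.69 ± 0.21, edgeR FDR = 0.0598, after vehicle), except after vehicle with high-Arntl libraries only (0.79, edgeR FDR = 0.0257).

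Acot1 was at 12.4, 10.7, 11.5, 8.11, and 11 CPM in vehicle-treated wild-type mice and at 16.9, 12.8, 20.7, 17.2, and 13 CPM in vehicle-treated Nrf2-knockout mice, a log2 difference of 0.61 ± 0.16 (1.52-fold, edgeR FDR = 0.0239). The call was lost without wild-type mouse 4 (0.51, edgeR FDR = 0.0561) or Nrf2-knockout mouse 3 (0.49, edgeR FDR = 0.058) and with high-Arntl libraries only (0.53, edgeR FDR = 0.0991). After CDDO-Me, 4 of 5 wild-type mice were at 4.66 CPM or lower and 1 was at 11.8 CPM (2.94, 4.2, 4.66, 11.8, and 2.55 CPM). Nrf2-knockout mice stayed at 18.1, 13, 19.1, 20.1, and 10.9 CPM. Their log2 difference was 1.65 ± 0.37 (3.13-fold, edgeR FDR = 0.0133), kept with each mouse left out in turn but not with high-Arntl libraries only (1.21, edgeR FDR = 0.163). The treatment difference of Acot1 within wild-type mice, -1.04 ± 0.34 on the log2 scale, was not called (edgeR FDR = 0.119). C151S mice had 15.3, 15.4, 9.09, 15.6, and 11.9 CPM after vehicle and 4.51, 13.4, 14.7, 14.2, and 11.6 CPM after CDDO-Me. Acot1 and Acot2 share sequence, 27.7% of the 50-base stretches of Acot2 being found in other genes and 19.2% of those of Acot1.

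Acot3 rose in wild-type mice from 1.32, 2.92, 1.23, 2.45, and 1.2 CPM after vehicle to 7.28, 7.54, 2.96, 7.1, and 1.94 CPM after CDDO-Me. The log2 difference was 1.54 ± 0.40 (2.91-fold, edgeR FDR = 0.0475), with 4 of 5 treated mice above all vehicle-treated mice. The call was lost without vehicle-treated mouse 1, 3, 4, or 5 or CDDO-Me-treated mouse 1, 2, or 4 (1.39 to 1.67, edgeR FDR = 0.0624 to 0.128). In C151S mice it scattered from 0.74 to 14.9 CPM after vehicle and from 1.26 to 21.2 CPM after CDDO-Me, and this spread went with Arntl, with 2.98 to 21.2 CPM in low-Arntl and 0.740 to 3.36 CPM in high-Arntl libraries. Nrf2-knockout mice had 2.84, 2.46, 6.5, 5.38, and 0.842 CPM after vehicle and 4.84, 14.5, 6.88, 12.5, and 4.75 CPM after CDDO-Me. The means were higher after CDDO-Me in both mutants too, by 1.36 on the log2 scale in C151S and 1.25 ± 0.49 in Nrf2-knockout mice (edgeR FDR = 0.588), without a call. Acot3 shares 19.1% of its 50-base stretches with other genes.

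**Figure D3:**
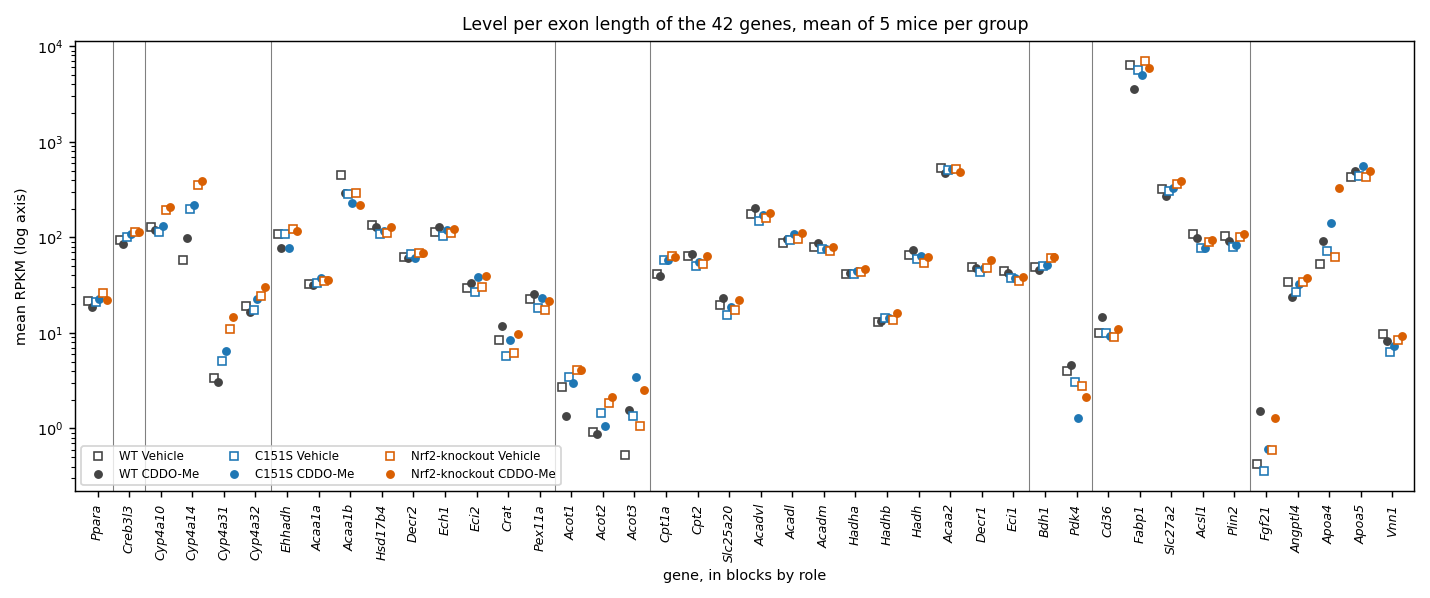
Mean RPKM (CPM per kilobase of exon, log axis) of the 42 genes in the 6 groups, in blocks by role, with open squares for vehicle and filled points for CDDO-Me. Fabp1 is highest at 6294 RPKM in vehicle-treated wild-type mice and Fgf21 lowest at 0.42 RPKM, and among the mitochondrial genes Cpt1a has the widest spread, from 39.7 to 64.3 RPKM, with all 4 mutant groups above both wild-type groups.

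Per exon length, the members spanned a wide range in vehicle-treated wild-type liver. Fabp1 had 6294 RPKM (CPM per kilobase of exon), followed by the mitochondrial thiolase gene Acaa2 (533 RPKM), Acaa1b (451 RPKM), Apoa5 (429 RPKM), and Slc27a2 (318 RPKM). At the lower end were Acot1 (2.74 RPKM), Acot2 (0.91 RPKM), Acot3 (0.53 RPKM), and Fgf21 (0.42 RPKM). Cyp4a14 moved from 57.9 RPKM in vehicle-treated wild-type to 349 RPKM in vehicle-treated Nrf2-knockout mice, whereas Cyp4a31 moved from 3.38 to 11 RPKM. The receptor gene Ppara stood at 21.8 RPKM.

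The 12 mitochondrial members, from the carnitine shuttle to the enzymes of each turn of beta-oxidation, gave no edgeR call for treatment in any genotype. In wild-type mice their log2 differences for CDDO-Me ran from -0.20 to 0.22, 8 of them above 0, with 4 at an unadjusted p under 0.05. In C151S mice all 12 were above 0, at 0.01 to 0.30 with a median of 0.11. In Nrf2-knockout mice they ran from -0.10 to 0.315 with a median of 0.17, and 10 of the 12 were above 0. Of all 42 members, 33 were above 0 in each mutant and 19 in wild-type mice, against 48.5% to 49.1% of all genes. Acadm, Acadl, and Acadvl, the dehydrogenases for medium, long, and very long chains, had group means of 281.2 to 344.7, 176.7 to 223.9, and 398.8 to 546 CPM, respectively. Hadha and Hadhb, the subunits of the trifunctional protein, lay at 360.7 to 408.5 and 86.3 to 107.7 CPM.

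Cpt1a, which encodes the carnitine palmitoyltransferase of the outer membrane, the rate-controlling step of entry (GRCm38 chr19:3322334-3385733), was the only mitochondrial member called. Vehicle-treated wild-type mice had 286, 287, 338, 293, and 359 CPM, C151S mice 422, 549.5, 357, 469, and 397 CPM, and Nrf2-knockout mice 430.5, 678, 599, 428, and 323 CPM. Here 1 mouse of each mutant fell within the wild-type range. The log2 difference from wild-type was 0.51 ± 0.12 in C151S mice (1.42-fold, edgeR FDR = 0.0251) and 0.67 ± 0.18 in Nrf2-knockout mice (1.60-fold, edgeR FDR = 0.0264). After CDDO-Me, wild-type mice had 224, 240.1, 335, 368, and 348 CPM, C151S mice 405, 445, 476, 449, and 452 CPM, and Nrf2-knockout mice 428, 673, 405, 484, and 382 CPM. Every mutant mouse was above every wild-type mouse after CDDO-Me. The log2 differences were 0.58 ± 0.14 (1.49-fold, edgeR FDR = 0.0342) and 0.66 ± 0.18 (1.58-fold, edgeR FDR = 0.0337). All of these differences were close to the thresholds.

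With high-Arntl libraries only, Cpt1a in C151S mice stayed called after vehicle (0.53, edgeR FDR = 0.0172) but not after CDDO-Me (0.50, edgeR FDR = 0.271). In Nrf2-knockout mice it was called neither after vehicle (0.30, edgeR FDR = 0.221) nor after CDDO-Me (0.82, edgeR FDR = 0.0731). The calls of Cpt1a after vehicle were lost without wild-type mouse 1, 2, or 4, for C151S mice also without C151S mouse 2 or 4 (0.41 to 0.49), and for Nrf2-knockout mice also without Nrf2-knockout mouse 2 or 3 (0.54 to 0.65, edgeR FDR = 0.0502 to 0.0657). After CDDO-Me they were lost without wild-type mouse 1, 2, or 3, for C151S mice also without C151S mouse 3, 4, or 5 (0.47 to 0.60, edgeR FDR = 0.0725 to 0.104), and for Nrf2-knockout mice also without Nrf2-knockout mouse 4 (0.57 to 0.69, edgeR FDR = 0.0566 to 0.0882). Cpt2, the inner-membrane partner of Cpt1a, pointed the other way in vehicle-treated C151S mice without overlap. Its log2 difference of -0.36 ± 0.08 (edgeR FDR = 0.0212) was below the size threshold.

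Pdk4, a kinase that shuts pyruvate dehydrogenase and so spares glucose when fat is burned (GRCm38 chr6:5483351-5496309), was lowest in CDDO-Me-treated C151S mice. These had 5.29, 8.56, 3.39, 2.77, and 2.67 CPM, against 13.6, 16.5, 22, 18.3, and 10.1 CPM in CDDO-Me-treated wild-type mice. The groups did not overlap, and the log2 difference was -1.80 ± 0.33 (0.287-fold, edgeR FDR = 0.00953), kept with each mouse left out in turn. Vehicle-treated mice had 20.5, 18.9, 11.5, 8.58, and 10.6 CPM in the wild-type, 12, 10.3, 22.9, 2.34, and 6.13 CPM in the C151S, and 4.49, 4.98, 3.89, 8.19, and 27.7 CPM in the Nrf2-knockout group. CDDO-Me-treated Nrf2-knockout mice had 5.26, 14.4, 3.67, 4.41, and 9.74 CPM, a log2 difference from wild-type of -1.08 ± 0.35 (edgeR FDR = 0.0651). Pdk4 went with the Arntl sets of the libraries. In Nrf2-knockout mice the low-Arntl libraries had 3.67 to 5.26 CPM and the high-Arntl libraries 8.19 to 27.7 CPM, without overlap, and in C151S mice the ranges were 2.34 to 6.13 and 5.29 to 22.9 CPM. With high-Arntl libraries only, C151S against wild-type after CDDO-Me was at -1.20 (edgeR FDR = 0.0997), and Nrf2-knockout against wild-type was at -0.39 (edgeR FDR = 0.417). Pdk4 was not the only such member. Acaa2 lay at 824 to 975 CPM in low-Arntl and 622 to 695 CPM in high-Arntl libraries of C151S mice. In Nrf2-knockout mice the Acaa2 ranges were 777 to 951 and 587 to 760 CPM, again without overlap. Plin2 was lower in low-Arntl libraries of C151S mice (171 to 264 against 275 to 457 CPM) but overlapped in Nrf2-knockout mice. Bdh1, the enzyme that interconverts the ketone bodies, had group means of 176.6 to 243.6 CPM and was highest in both Nrf2-knockout groups, without a call.

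**Figure D4:**
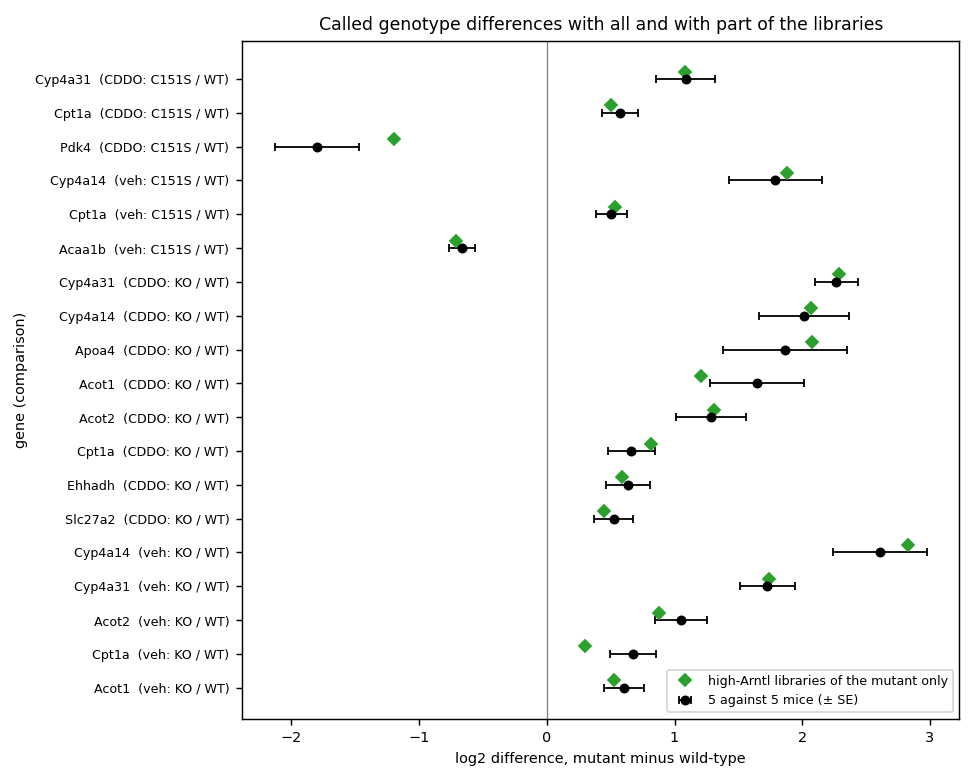
Log2 differences of the 19 called mutant against wild-type comparisons, with 5 against 5 mice (points with SE bars) and with the high-Arntl libraries of the mutant only (diamonds). Each diamond rests on 2 or 3 of the same 5 mutant mice. Cyp4a14 and Cyp4a31 are nearly the same both ways, whereas Pdk4 moves from -1.80 to -1.20 and Cpt1a in vehicle-treated Nrf2-knockout mice from 0.67 to 0.30.

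Fabp1 encodes the liver fatty acid-binding protein, which carries fatty acids through the cytosol and to the nucleus. It was the member with the lowest p for treatment in wild-type mice. Vehicle-treated mice had 4244, 3009, 3763, 2975, and 3414 CPM and CDDO-Me-treated mice 1698, 1899.9, 2299.9, 2380.4, and 1525 CPM. The groups were well apart, and the log2 difference was -0.84 ± 0.14 (0.560-fold, edgeR FDR = 0.00559). It was between -0.91 and -0.75 with each mouse left out in turn, called each time. In a fit of all 30 libraries together it was at -0.83 and not called (edgeR FDR = 0.359), and the same held for Ehhadh (edgeR FDR = 0.307), Fgf21 (edgeR FDR = 0.166), and Acot3 (edgeR FDR = 0.443). The mutants did not show a separation of this kind. C151S mice had 2528, 3185, 2205, 4279.5, and 3312 CPM after vehicle and 1581, 2191, 3631, 3095, and 3221 CPM after CDDO-Me. Nrf2-knockout mice had 3767, 4517, 2858, 2678, and 5422 CPM after vehicle and 4613, 606, 3216, 5392, and 2391 CPM after CDDO-Me. Their treatment differences of -0.18 and -0.25 were not called, and the differences of these responses from the wild-type response were not called either. The hepatocyte markers Alb, Ttr, Apoc3, Ass1, Cps1, and Tat were also lower after CDDO-Me in the wild-type group, in 6 of 6 cases, with a summed level of 70957 to 93560 CPM against 87974 to 107960 CPM after vehicle. Their median log2 difference was -0.42 and the lowest -0.71. Of the 6, 3 had an unadjusted p under 0.05 and 2 an edgeR FDR under 0.05 (lowest edgeR FDR = 0.0166). These 2 did not reach the size threshold, so none of the 6 was called, and their part in the Fabp1 and Ehhadh results was not tested.

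The region just before the Fabp1 gene (GRCm38 chr6:71199827-71205023) is shown because Fabp1 was the clearest treatment result. It also holds the PPAR-alpha motif nearest to the ideal among the 33 members whose promoters could be searched. The receptor pair binds a direct repeat called DR1, in which a pair of AGGTCA half-sites have 1 base between them. RefSeq promoter windows (GRCm38.p6), 250 bases before to 50 bases after each start, were at hand for 33 of the 42 members, in 38 windows. The other 9 were not searched: Cyp4a10, Cyp4a14, Cyp4a31, Hsd17b4, Crat, Acaa2, Decr1, Angptl4, and Vnn1. In the stretch below, chr6:71199707-71199826 on the plus strand, the capitals mark the DR1-like site, which reads on the minus strand and has 1 mismatch over the 12 fixed bases.
Fabp1 upstream: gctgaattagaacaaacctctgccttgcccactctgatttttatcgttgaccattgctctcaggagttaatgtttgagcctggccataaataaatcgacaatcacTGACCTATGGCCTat
The other members with a DR1-like site within 2 mismatches in their windows were Cd36, Creb3l3, Plin2, and Slc25a20, and the sites of all 5 are given in capitals throughout, on the strand where they match.
Fabp1 (chr6:71199812-71199824, minus strand, 1 mismatch): AGGCCATAGGTCA
Cd36 (chr5:17835947-17835959, plus strand, 2 mismatches): AAGTCAGAGGCCA
Creb3l3 (chr10:81092788-81092800, minus strand, 2 mismatches): AGGGGAGAGGTCA
Plin2 (chr4:86670272-86670284, plus strand, 2 mismatches): AGGTCAGGGGTCC
Slc25a20 (chr9:108662142-108662154, plus strand, 2 mismatches): AGGTGAAAGGTCG
With both strands searched, sites within 1 mismatch were in 1 of the 38 windows (2.63%) and in 0.554% of 32851 windows of all genes, and sites within 2 mismatches in 5 (13.2%) and in 3.86%. No member window held an exact site, which 0.0396% of all windows do. The antioxidant response element bound by NRF2 has the core TGACNNNGC, which was in 4 member windows (10.5%), of Acot3, Ehhadh, and Fabp1, and in 12.4% of all windows. It read TGACTGTGC in both windows of Acot3 (chr12:84052052-84052060, minus strand), TGACCCAGC for Ehhadh (chr16:21787991-21787999, minus strand), and TGACCTGGC for Fabp1 (chr6:71199870-71199878, plus strand). These matches are descriptions of the letters and not of bound sites, and of the 5 genes with a DR1-like site only Fabp1 was called in any comparison.

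Cd36, a fatty acid translocase of the cell surface, was at 49.4, 30.2, 36.9, 27.7, and 34.2 CPM in vehicle-treated and 52.8, 66.1, 46, 51.8, and 47.8 CPM in CDDO-Me-treated wild-type mice. Of the treated mice, 3 exceeded all vehicle-treated mice, and the log2 difference of 0.56 ± 0.15 narrowly missed the FDR threshold (edgeR FDR = 0.0547). Slc27a2, which imports and activates very long chains, was called between CDDO-Me-treated Nrf2-knockout mice (1569, 1662, 1363, 1589, and 1097 CPM) and wild-type mice (777, 921, 1120.4, 1268, and 1035 CPM). The ranges overlapped at the lowest Nrf2-knockout mouse, and the log2 difference was 0.53 ± 0.15 (1.44-fold, edgeR FDR = 0.0435). The call was lost with high-Arntl libraries only (0.45, edgeR FDR = 0.229), and without any of wild-type mice 1, 2, 3, and 5 and Nrf2-knockout mice 1, 2, 3, and 4 (0.44 to 0.55, edgeR FDR = 0.0589 to 0.111). Acsl1, the main acyl-CoA synthetase of liver, was lower in vehicle-treated C151S than in vehicle-treated wild-type mice without overlap. At -0.47 ± 0.10 on the log2 scale (edgeR FDR = 0.0168) it was just under the size threshold. Plin2, which coats lipid droplets, had group means of 279.7 to 377.4 CPM and no call.

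Fgf21 encodes a fasting hormone that the liver releases into the blood. It was the member with the largest log2 difference for treatment in wild-type mice, from a low level. Its raw counts were 9, 5, 19, 7, and 20 in vehicle-treated and 15, 34, 34, 76, and 67 in CDDO-Me-treated wild-type mice, or 0.395, 0.172, 0.499, 0.22, and 0.706 CPM against 0.587, 1.12, 1.2, 2.23, and 2.06 CPM. The log2 difference was 1.85 ± 0.41 (3.60-fold, edgeR FDR = 0.024), with 4 of 5 treated mice above all vehicle-treated mice. The call was lost without vehicle-treated mouse 1, 3, or 4 or CDDO-Me-treated mouse 4 (1.64 to 1.96, edgeR FDR = 0.0535 to 0.0592). In C151S mice Fgf21 was at 0.129, 0.509, 0.306, 0.13, and 0.657 CPM after vehicle and 0.61, 0.692, 0.251, 0.48, and 0.863 CPM after CDDO-Me. Nrf2-knockout mice had 0.134, 0.795, 0.217, 0.792, and 0.91 CPM after vehicle and 0.266, 3.48, 0.647, 0.765, and 0.915 CPM after CDDO-Me. The ranges of the 2 treatments overlapped in both mutants, and neither difference was called. After CDDO-Me, C151S mice were below wild-type mice by -1.29 ± 0.39 without a call (edgeR FDR = 0.0664).

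Apoa4, an apolipoprotein that the liver makes more of when it exports fat, had its widest gap between treatments in Nrf2-knockout mice, at 94.3, 151.25, 130.4, 117, and 69.9 CPM after vehicle and 300.4, 1057, 1032, 261, and 334 CPM after CDDO-Me. No treated mouse overlapped with a vehicle-treated mouse, and the log2 difference was 2.39 ± 0.43 (5.23-fold). Adjusted over all genes it was not called by edgeR (edgeR FDR = 0.27), whereas DESeq2 called it (DESeq2 FDR = 1.48e-05), as did edgeR in the fit of all 30 libraries (edgeR FDR = 0.0204). Wild-type mice had 97.4, 83.9, 72, 134, and 95.1 CPM after vehicle and 284, 239, 106, 77.8, and 122 CPM after CDDO-Me. C151S mice had 90.6, 156, 129, 92.1, and 189.9 CPM after vehicle and 206, 292, 67.7, 433, and 288 CPM after CDDO-Me. The treatments overlapped in both, at 0.78 ± 0.32 (edgeR FDR = 0.223) and 0.97 ± 0.40 (edgeR FDR = 0.354) on the log2 scale, and all 3 group means were higher after CDDO-Me. Between CDDO-Me-treated Nrf2-knockout and wild-type mice the log2 difference of 1.86 ± 0.49 was called (3.64-fold, edgeR FDR = 0.0268; 2.08 and edgeR FDR = 0.0402 with high-Arntl libraries only). It was lost without wild-type mouse 3, 4, or 5 or Nrf2-knockout mouse 3 (1.57 to 1.77, edgeR FDR = 0.052 to 0.0719). Angptl4, an inhibitor of lipoprotein lipase, Apoa5, which regulates plasma triglyceride, and Vnn1, a pantetheinase, had no call.

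No member's response to CDDO-Me differed between genotypes at an edgeR FDR under 0.05 in the fit of all 30 libraries, and DESeq2 called none either. Of 15010 genes DESeq2 called 113 between wild-type and C151S, 85 between wild-type and Nrf2-knockout, and 3 between C151S and Nrf2-knockout responses. The shares that follow are those of edgeR. Between wild-type and C151S mice 0.48% of all genes differed in response, and 0 members had an unadjusted p under 0.05, Pdk4 being nearest (1.45 ± 0.73, edgeR FDR = 0.617). Between wild-type and Nrf2-knockout mice 0.266% of genes differed. Here 3 members had an unadjusted p under 0.05, led by Apoa4 (-1.63 ± 0.59, edgeR FDR = 0.514) and Acot1 (-1.04 ± 0.43, edgeR FDR = 0.671). Between C151S and Nrf2-knockout mice 0.0133% of genes differed, and 2 members had an unadjusted p under 0.05, with Apoa4 first (-1.44 ± 0.59, edgeR FDR = 0.943). The calls of Fabp1, Ehhadh, Fgf21, and Acot3 in wild-type mice therefore stand beside mutants in which edgeR did not call them, without a called difference between the responses.

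**Figure D5:**
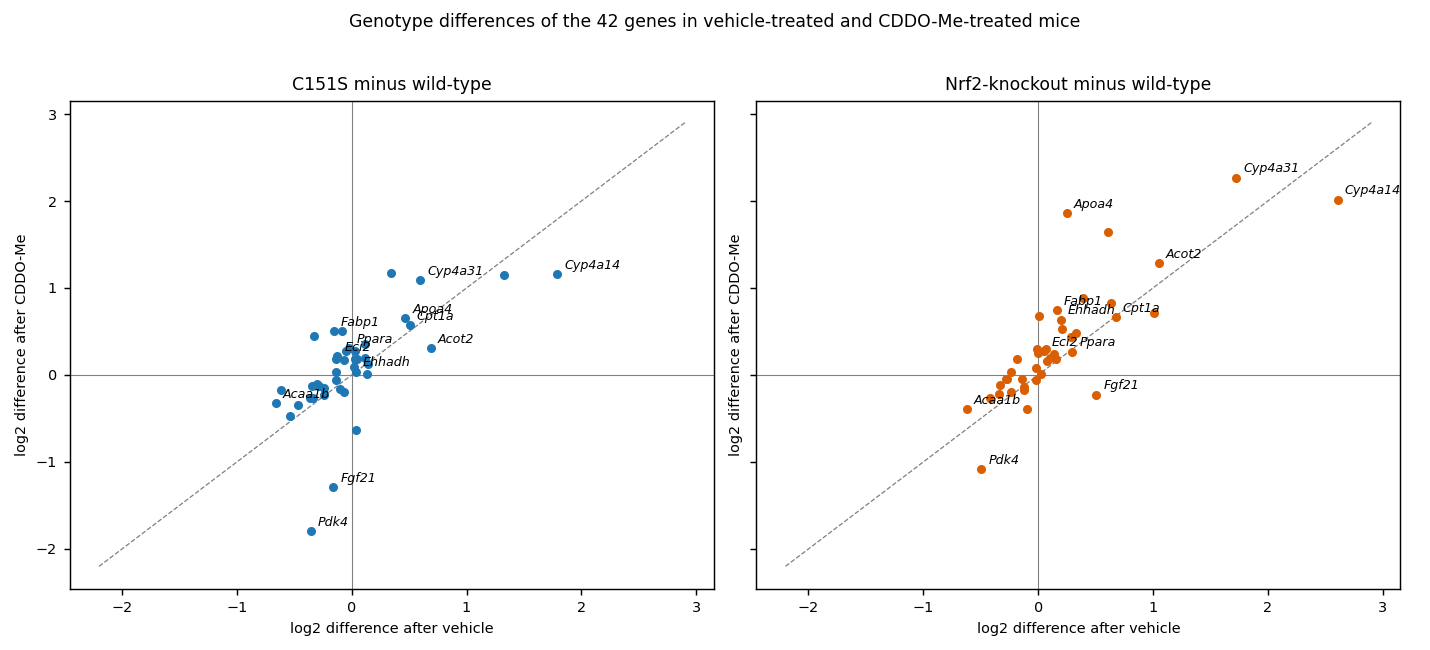
Log2 difference of each of the 42 genes between mutant and wild-type mice after vehicle (x axis) and after CDDO-Me (y axis), for C151S (left) and Nrf2-knockout mice (right), with a dashed line where both are equal. Points of the Nrf2-knockout panel follow the line more closely, with 36 of 42 of the same sign against 32 of 42 for C151S.

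The genotype differences after vehicle and after CDDO-Me came from separate mice and were alike. For Nrf2-knockout against wild-type mice, 36 of 42 members (85.7%) had the same sign both times, 23 higher and 13 lower, with Pearson's r = 0.81 and Spearman's rho = 0.82 across the 42 genes. For C151S against wild-type mice the same sign was seen for 32 members (76.2%), 16 in each direction, with r = 0.67 and rho = 0.71. These are descriptions across genes, which are not independent replicates. Over all genes tested both times the same sign was found for 76.5% and r was 0.76 for Nrf2-knockout mice, and 68.2% and 0.6 for C151S mice, so that the members were close to the rest.

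Of a wider list of 77 further genes of PPAR-alpha signaling and fatty acid use, 71 to 73 were tested in each comparison. In CDDO-Me-treated wild-type mice 5 were called (7.04% of those tested, against 2.75% of all genes), among them Acot4 (0.74) and Hacl1 (0.56), which were higher, and Scp2 (-0.51) and Cyp4a12a (-0.61), which were lower on the log2 scale. The named genes act in the peroxisome, apart from Cyp4a12a, an omega-hydroxylase of the same family as Cyp4a14. None was called by edgeR for treatment in C151S or Nrf2-knockout mice, with 8 and 6 genes at an unadjusted p under 0.05. Cyp4a12a was called lower in all 4 comparisons of a mutant with wild-type mice, by values of -0.99 in C151S and -1.48 in Nrf2-knockout mice after vehicle and -1.08 and -1.58 after CDDO-Me, and this was opposite in direction to Cyp4a14 and Cyp4a31. It stayed called in all 4 with high-Arntl libraries only.

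Pparg, the gene of the related receptor PPAR-gamma, was called lower in Nrf2-knockout mice after vehicle (-1.43) and in both mutants after CDDO-Me (-1.05 in C151S and -1.92 in Nrf2-knockout mice). After CDDO-Me both mutants were also lower in Cat, the catalase gene (-0.73 and -0.88). Lpin1, a phosphatase and co-activator of PPAR-alpha, was called higher in both (2.56 and 1.61). Over the 4 comparisons with wild-type mice 25 results of the wider list were called, 3 and 6 after vehicle and 9 and 7 after CDDO-Me. In C151S mice these were 4.23% of the list after vehicle, where 4.84% of all genes were called, and 12.7% after CDDO-Me, where 5% were. In Nrf2-knockout mice they were 8.45% after vehicle and 9.86% after CDDO-Me, near the 10.4% and 9.44% of all genes. With high-Arntl libraries only, 2 of 3, 3 of 6, 1 of 9, and 5 of 7 were still called, respectively, and all kept their direction; the 1 of 9 was Cyp4a12a, and Lpin1 in C151S mice went from 2.56 to 1.22 (edgeR FDR = 0.313). No gene of the wider list was called by edgeR between C151S and Nrf2-knockout mice, with 7 genes after vehicle and 3 after CDDO-Me at an unadjusted p under 0.05, or in the differences between responses, with 5, 5, and 0.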

How the data were processed

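RNA-seq was done on livers of 30 mice. The authors made TruSeq Stranded mRNA libraries, checked paired-end reads of 50 bases with fastp, aligned them to mm10 with STAR 2.7.7 and GENCODE annotation, and deposited raw counts per gene for the strand that matches the library, without normalization (edgeR 3.36.0 was used by them afterwards). Reads with several positions were not counted. The dates of sample isolation, a covariate in the study, were not used here.

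Groups came from the labels. Counts of the groups compared were filtered with filterByExpr, normalized by TMM, and fitted with edgeR 4.0.16 (R 4.3.3), whose quasi-likelihood F-test was used in the legacy form, and calls needed a Benjamini-Hochberg FDR under 0.05 over all genes and an absolute log2 difference of 0.5. Differences between responses came from 1 fit of all 30 libraries, without a threshold on size. SE is the log2 difference over the square root of F. CPM uses TMM over all libraries and RPKM the union exon length (GRCm38). Counts carry no molecular identifiers. Low counts such as those of Fgf21 hold counting error that is part of the SE. Alternatives included DESeq2 1.42.0, other normalizations, filters, and fits, a replicate block, the Arntl sets, and each mouse left out. The fits were tested on simulated counts.

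Printed mouse by mouse were Ppara and, per comparison, up to 3 called members with the lowest p, or the member with the lowest p where none was called. Other genes printed so (Acot1, Acot3, Cd36, Slc27a2) were chosen after their values were seen, as were the Arntl sets for the wider list. The members and lists were chosen with earlier results of these data known. Promoter sequences are from RefSeq (GRCm38.p6). Values of 1 gene of the wider list are not reported here.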

Additional observations from a re-analysis of the deposited data

Results flagged for a closer look

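Among 72 groups of 5 mice, 6 for each of 12 members, 5 held a lone mouse whose gap to the nearest other mouse, divided by the range of the group, exceeded 0.71. Chance gives such a mouse in about 1 in 20 groups. In CDDO-Me-treated C151S mice, mouse 1 was low for Ehhadh (100.6 CPM, the others at 244.3 to 285.3 CPM) and for Cyp4a14 (213.9 CPM, the others at 588.95 to 740.9 CPM). In CDDO-Me-treated Nrf2-knockout mice, mouse 2 was high for Fgf21 (3.48 CPM, the others at 0.266 to 0.915 CPM). In vehicle-treated Nrf2-knockout mice, mouse 3 was high for Acot2 (5.98 CPM, the others at 3.32 to 3.88 CPM) and mouse 5 was high for Pdk4 (27.7 CPM, the others at 3.89 to 8.19 CPM).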

How the results depend on the processing

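Of the counts of members called, 91 values under alternatives lay within 1.5 times of the count reported and 26 did not. Each count of members is given below among the number of all genes called in the same setting, except with no threshold on size and with each mouse left out. The genes tested numbered 13697 to 15010, except with no filter (28532 and 28498). For CDDO-Me in wild-type mice (4 among 377), a fit of all 30 libraries gave 0 among 147. For CDDO-Me in Nrf2-knockout mice (0 among 0), DESeq2 gave 1 among 52 and the fit of all 30 libraries 1 among 11. For C151S against wild-type after vehicle (3 among 675), DESeq2 gave 5 among 1006 and the fit of all 30 libraries 1 among 382. No threshold on size gave 5 members. The Arntl set as a covariate gave 6 among 1904 and high-Arntl libraries only 6 among 2030, so that calls over all genes rose there as well. For Nrf2-knockout against wild-type after vehicle (5 among 1462), the covariate gave 2 among 954 and high-Arntl libraries 3 among 1168. For C151S against Nrf2-knockout after vehicle (0 among 50), DESeq2 gave 2 among 180. The fit of edgeR 4 (among 60), no filter (79), the fit of all 30 libraries (99), the covariate (89), and low-Arntl libraries only (10) gave 1 each. For C151S against wild-type after CDDO-Me (3 among 692), DESeq2 gave 6 among 1137 and the fit of all 30 libraries 5 among 1001. The covariate gave 0 among 383 there and high-Arntl libraries 1 among 294. For Nrf2-knockout against wild-type after CDDO-Me (8 among 1315), the covariate gave 5 among 1152 and high-Arntl libraries 4 among 1087. For C151S against Nrf2-knockout after CDDO-Me (0 among 23), DESeq2 gave 2 among 118 and the fit of all 30 libraries 2 among 126. Upper-quartile normalization gave 1 among 24 there and no filter 1 among 35. The cause of these changes in the counts of members was not tested. With each mouse left out in turn the counts ran, in the same order of comparisons, from 2 to 5, 0 to 0, 2 to 4, 3 to 7, 0 to 1, 2 to 7, 4 to 10, and 0 to 1. How many of all genes were called with each mouse left out is not given. These ranges therefore cannot be set against those of all genes. No value of a single named member reversed its direction. The median log2 difference over the members did so in 2 comparisons, from 0.06 to -0.07 with the covariate and with high-Arntl libraries only for Nrf2-knockout against wild-type after vehicle, and from 0.11 to -0.05 and -0.08, respectively, for C151S against wild-type after CDDO-Me. Of the values of single members, 242 kept their status, whether called or not called, 36 lost a call, and 12 gained one.

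The mouse numbers were not taken as pairs because in no comparison did all 5 same-numbered pairs correlate above 0.1 in their deviations from the group means. The nearest were C151S against wild-type after CDDO-Me (4 of 5 pairs above 0.1, mean 0.162 against -0.042 for other pairs) and CDDO-Me in Nrf2-knockout mice (3 of 5, mean 0.19 against -0.047). At most 3 of 5 mice correlated best with their own number. With the replicate block, the counts of members called were 3 for CDDO-Me in wild-type mice and 0 in both mutants, 3 and 5 for C151S and Nrf2-knockout against wild-type after vehicle, 4 and 6 after CDDO-Me, and 0 between the mutants and for the differences between responses. Calls over all genes with the block were 299 for CDDO-Me in wild-type, 2 in C151S, and 0 in Nrf2-knockout mice. Against wild-type they were 567 and 1207 after vehicle and 827 and 1245 after CDDO-Me. Between the mutants they were 9 after vehicle and 8 after CDDO-Me, and for the differences between responses 52, 23, and 1.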
